A study of Mus musculus with 6 samples.

Results

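The RAS-RAF-MEK-ERK cascade carries growth factor signals from the cell membrane to the nucleus. RAS proteins are small GTPases that, when loaded with GTP, recruit RAF kinases to the membrane. RAF phosphorylates the MEK kinases, MEK phosphorylates ERK, and ERK acts on cytoplasmic proteins and on transcription factors. In branching glands the cascade is best known as a route downstream of the receptors for fibroblast and epidermal growth factors, and CXCR4, a chemokine receptor coupled to G proteins, can also feed into it. Its activity is set by GTP loading and phosphorylation, which mRNA levels do not report.

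The 7 genes described here, Hras and Nras (RAS GTPases), Araf and Braf (RAF kinases), Map2k1 and Map2k2 (MEK1 and MEK2) and Mapk3 (ERK1), are among the 23260 genes counted in the series. They were chosen by gene symbol, as members of these families, and with earlier results of the AMD3100 comparison in these libraries known. Their levels and fold changes in that comparison are therefore given as a description, and the members were tested only along with all other genes. All libraries came from whole submandibular glands (eSMGs) of ICR mouse embryos at embryonic day 14, epithelium and mesenchyme together, cultured on membranes in DMEM/F12 medium. No agent is given for control glands. The other group was treated for 6 h with 50 µM AMD3100, an antagonist of CXCR4. Up to 10 glands were pooled in a tube, and each group held 3 tubes, numbered as replicates 1 to 3. The study's statistics section speaks of independent experiments in general, but which litters or cultures these tubes came from is not given in the sources used here. The p-values measure the spread between these tubes.

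The library kit reads transcripts at their 3′ ends, and the deposited values were read counts per gene. Between 9051595 and 14393031 reads were counted per library. Levels are given in CPM, read counts scaled to library size after TMM normalization. A transcript of any length yields reads from 1 end, so levels were not divided by length. The 7 genes had between 70 and 3096 counts in every library, far above the 3 counts used as the lower limit of detection, and all 7 passed the filter on low counts that left 13610 genes for comparison. Markers of both labelled tissues were present. All 10 epithelial markers listed and all 6 mesenchymal ones were counted in every library, led by Krt15, a basal keratin, at a mean of 1299 CPM and Col3a1, a fibrillar collagen, at a mean of 1075 CPM. Since whole glands were used, fewer cells of a type and less RNA per cell cannot be told apart.

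Between AMD3100-treated and control eSMGs, Nras and Map2k1 stood lower with AMD3100, by factors of 0.790 and 0.629, whereas Araf and Map2k2 stood higher, by factors of 1.37 and 1.27. Hras, Braf and Mapk3 had fold changes between 1.06 and 1.09. In edgeR's quasi-likelihood test with Benjamini-Hochberg adjustment over all 13610 genes, 0 of the 7 had an adjusted p-value under 0.05, and 0 of all genes did (0.00%), against 228 at an unadjusted p-value under 0.05 and 5 at an adjusted one with DESeq2. With the thresholds of the study, a fold change over 1.5 and an unadjusted p-value under 0.05, 0 of the 7 passed, against 228 of all genes (1.68%), of which 174 were lower (1.28%) and 54 higher (0.397%). Without control replicate 3 alone there were 547, of which 231 were lower and 316 higher, so the balance turned. With replicates 1 and 2 only, which also leaves out AMD3100 replicate 3, there were 613, of which 346 were lower and 267 higher. With quantile normalization the count over all genes was 467, of which 289 were lower and 178 higher. With replicate number as a block in the model, 598 genes passed those thresholds, of which 395 were lower and 203 higher. With the block 3 genes had an adjusted p-value under 0.05, and 0 of the 7 were in either count. The median log2 fold change was 0.12 over the 7 genes and 0.02 over all genes tested.

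**Figure D1:**
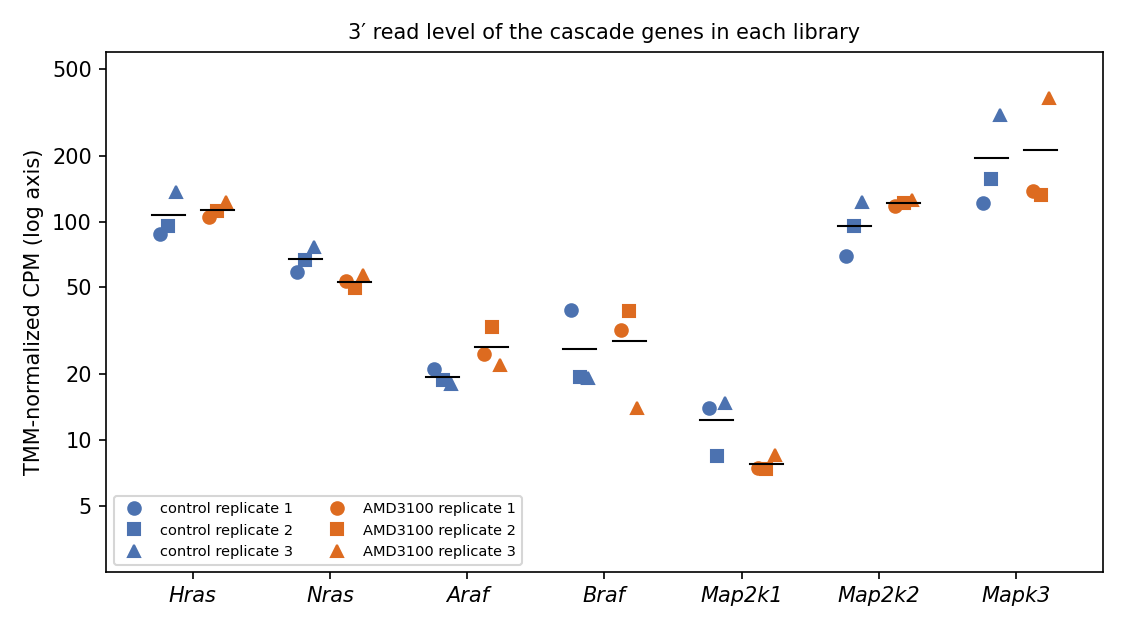
Levels of the 7 cascade genes in each of the 6 libraries, as TMM-normalized CPM on a log axis, with a point per library (symbol shape for replicate number) and a bar for the mean of each group of 3. The groups stand apart only for Nras, lower with AMD3100, and Araf, higher with AMD3100, and both replicate 3 libraries stand far above the others for Mapk3.

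HRAS and NRAS are closely related GTPases that act at the top of the cascade. Hras (chromosome 7, 141189934 to 141194019, in RefSeq on GRCm38.p6, the build the labels call mm10) was at 88.1, 95.8 and 136.7 CPM in control replicates 1 to 3 and at 105.1, 111.6 and 123.3 CPM in AMD3100 replicates 1 to 3. All AMD3100 libraries lay inside the control range, and the means were 106.9 ± 26.1 and 113.3 ± 9.21 CPM (SD, n = 3 each) with a log2 fold change of 0.09 (standard error, SE, 0.29). Without control replicate 1 it was -0.042. Nras (chromosome 3, 103058285 to 103067914) was at 58.7, 66.9 and 76.5 CPM in control and at 53.3, 49.5 and 56.7 CPM in AMD3100-treated eSMGs. Every AMD3100 library was below every control library. The mean went from 67.3 ± 8.92 to 53.2 ± 3.62 CPM (SD, n = 3 each) (log2 fold change -0.34, SE 0.27).

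ARAF and BRAF are the RAF kinases that RAS recruits, BRAF being the more active kinase. Araf (chromosome X, 20797707 to 20860521) was at 21.3, 18.9 and 18.0 CPM in control and at 24.8, 32.8 and 22.1 CPM with AMD3100. Here every AMD3100 library was above every control library, and AMD3100 replicate 2 was the highest. The mean went from 19.4 ± 1.68 to 26.6 ± 5.57 CPM (SD, n = 3 each) (log2 fold change 0.45, SE 0.32), and without AMD3100 replicate 2 the log2 fold change was 0.28. The span of Araf overlaps the pseudogene Gm15028 by 4612 bases, the small RNA gene Gm26065 by 105 and Syn1 by 11, that of Braf overlaps the noncoding RNA gene Gm34389 by 27231 bases and the pseudogene Fth-ps2 by 490, and that of Map2k1 overlaps Uchl4 by 1162. Whether strand was used in counting is not given in the sources used here. Braf (chromosome 6, 39603231 to 39725658) was at 39.6, 19.4 and 19.2 CPM in control and at 32.1, 39.2 and 14.1 CPM with AMD3100. The groups overlapped, their highest libraries were at nearly the same level and AMD3100 replicate 3 was the lowest of all. Means were 26.1 ± 11.7 and 28.5 ± 12.9 CPM (SD, n = 3 each; log2 fold change 0.13, SE 0.47). Groups that stood apart, as for Nras and Araf, were 2 of the 7 genes, against 1013 of all genes (7.44%).

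MEK1 and MEK2 are the dual-specificity kinases that phosphorylate ERK. Map2k1 (chromosome 9, 64185769 to 64253605), the gene of MEK1, had the lowest level of the 7. It had 160, 116 and 148 counts in control and 129, 80 and 70 counts with AMD3100, which is 14.0, 8.45 and 14.8 CPM against 7.43, 7.37 and 8.60 CPM. The groups overlapped because AMD3100 replicate 3 was just above control replicate 2. The mean went from 12.4 ± 3.45 to 7.80 ± 0.690 CPM (SD, n = 3 each) (log2 fold change -0.67, SE 0.42), the largest difference among the 7 genes. Map2k2 (chromosome 10, 81105913 to 81124697), the gene of MEK2, was at 69.6, 95.8 and 122.6 CPM in control and at 117.9, 121.5 and 125.0 CPM with AMD3100. The AMD3100 libraries were close together and near the highest control library. The mean went from 96.0 ± 26.5 to 121.5 ± 3.58 CPM (SD, n = 3 each) (log2 fold change 0.34, SE 0.30). Without control replicate 1 the log2 fold change was 0.15 and without control replicate 3 it was 0.56. In same-numbered libraries, Map2k1 was lower with AMD3100 in 3 of 3 pairs and Map2k2 higher in 3 of 3. The same held for Nras (lower) and Araf (higher). These pairs rest on the replicate number alone, and the share of all genes with such a pattern was not computed.

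Mapk3 (chromosome 7, 126759626 to 126765816) encodes ERK1, the kinase at the end of the cascade. It was at 122.2, 157.2 and 308.7 CPM in control and at 138.5, 132.4 and 367.5 CPM with AMD3100. The replicate 3 library was the highest in both groups, and the groups overlapped. The means were 196.1 ± 99.1 and 212.8 ± 134.1 CPM (SD, n = 3 each) (log2 fold change 0.12, SE 0.50). With replicates 1 and 2 only, the log2 fold change of Mapk3 was -0.051, and without AMD3100 replicate 3 alone it was -0.55. Of 11 windows of 50 bases from the end of its transcript, 2 matched another place of the genome about as well, and for each of the other 6 genes 0 of 11 did.

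By mean control level the order was Mapk3, Hras, Map2k2, Nras, Braf, Araf and Map2k1, from 196.1 to 12.4 CPM. Mapk3 was above Hras, Map2k2 above Nras, Nras above Braf and Araf above Map2k1 in 6 of 6 libraries. Hras and Map2k2 did not hold their order. Hras was the higher in 2 of 6 libraries, control replicates 1 and 3, and Map2k2 in 3, the AMD3100 libraries. Both had 1315 counts in control replicate 2. Braf was above Araf in 5 of 6 libraries, with AMD3100 replicate 3 as the exception.

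Counts of members of a tier were also set against each other within each library, a ratio that does not depend on scaling between libraries. These ratios were taken after the values above had been seen, so they restate those differences within a library and are no separate evidence of them. Map2k2 had 4.97, 11.3 and 8.30 counts for each Map2k1 count in control and 15.9, 16.5 and 14.5 with AMD3100. The groups did not overlap, AMD3100 being the higher, and the ratio of geometric means was 2.01. The control libraries were spread more widely, at 8.20 ± 3.18 against 15.6 ± 0.987 with AMD3100 (SD, n = 3 each). Hras had 1.501, 1.43 and 1.79 counts for each Nras count in control and 1.97, 2.26 and 2.17 with AMD3100, which is 1.57 ± 0.188 against 2.13 ± 0.145 (SD, n = 3 each). Here too the groups did not overlap. How often the ratios of other gene pairs stand apart between the groups was not computed. The ratio of Araf to Braf was 0.538, 0.970 and 0.938 in control and 0.774, 0.838 and 1.57 with AMD3100, and its groups overlapped.

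**Figure D2:**
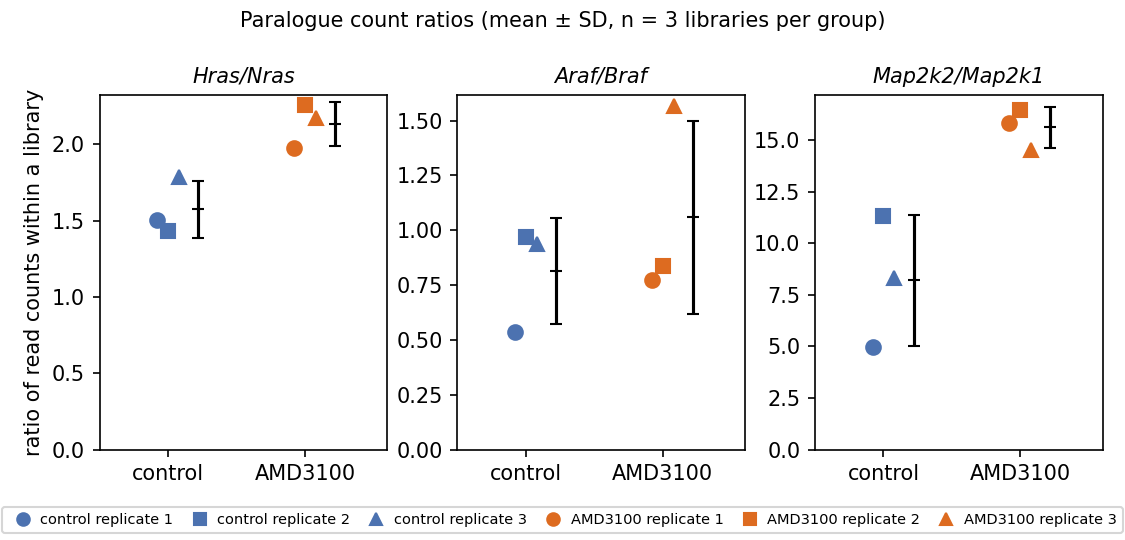
Ratio of the read counts of 2 members of a tier within each library, for Hras over Nras, Araf over Braf and Map2k2 over Map2k1, with a point per library and the mean ± SD of 3 libraries beside them. The AMD3100 libraries lie above all control libraries for Hras over Nras and for Map2k2 over Map2k1, and among the control libraries for Araf over Braf apart from replicate 3.

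The MEK genes gave the widest of these differences, and their promoters are shown to compare the sequence before each start. The 250 bases before the start that the RefSeq promoter table uses (GRCm38.p6) are printed 5′ to 3′, with each GC box, the letters GGGCGG on either strand, in capitals. Map2k1 is read from the minus strand at chr9:64253606-64253855 and Map2k2 from the plus strand at chr10:81105665-81105914. The choice of these genes and letters was made after the values were seen.
Map2k1: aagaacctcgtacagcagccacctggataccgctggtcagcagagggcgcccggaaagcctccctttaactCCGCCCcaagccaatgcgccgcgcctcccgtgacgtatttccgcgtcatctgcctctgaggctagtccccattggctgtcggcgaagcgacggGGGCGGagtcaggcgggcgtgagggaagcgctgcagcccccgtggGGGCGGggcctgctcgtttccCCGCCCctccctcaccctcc
Map2k2: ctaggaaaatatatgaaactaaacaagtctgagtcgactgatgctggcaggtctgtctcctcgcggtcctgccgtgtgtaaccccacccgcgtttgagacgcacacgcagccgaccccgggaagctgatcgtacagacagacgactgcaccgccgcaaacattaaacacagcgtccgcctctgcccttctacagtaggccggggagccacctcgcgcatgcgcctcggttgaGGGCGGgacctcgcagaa
With the next 50 bases included (a window of 300 bases), the Map2k1 promoter holds 4 GC boxes and is 69% G and C, and that of Map2k2 holds 2, of which 1 is in the printed stretch, and is 60.7% G and C. A GC box was found in 35.7% of all 32851 RefSeq promoters of this length. Promoters were found for 6 of the 7 genes. The start the table uses is the outer end of the gene span for Nras and Map2k1. It lies inside the span by 2 bases for Map2k2, 15 for Hras, 195 for Braf and 50836 for Araf. Hras and Nras had 3 GC boxes each, Braf had 1 and Araf had 0. Braf alone of the 6 held the cAMP response element (TGACGTCA, which reads alike on both strands), at 2 places, against 1.79% of all promoters with any. The TATA box letters (TATAAA on either strand, in 13.6% of all promoters) were in 0 of the 6, and so was the ETS core CCGGAAG, in 8.86% of all promoters. These letters are a description of the sequence, and binding was not measured.

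The largest differences within the cascade genes were between replicates. In control eSMGs the replicate 3 library stood at 2.21 times the mean of replicates 1 and 2 for Mapk3, and in AMD3100-treated eSMGs at 2.71 times. For Braf it stood at 0.652 and 0.396 times. Both replicate 3 libraries were above the 4 others for Hras, Map2k2 and Mapk3 and below them for Braf, which is 4 of the 7 genes, against 44.2% of all genes tested. Nras, Araf and Map2k1 did not separate the replicate 3 libraries. The biological coefficient of variation, edgeR's estimate for each gene drawn toward the trend at its level, was lowest for Nras (0.284). It was highest for Mapk3 (0.457), against a median of 0.461 over all genes. At their own level, Mapk3 (trend 0.387) and Braf (0.428, trend 0.404) were above the trend, and the other 5 genes were below it.

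Markers of skeletal muscle moved with replicate 3 in the same libraries. The summed level of the 5 muscle markers was 258.7, 277.6 and 1017 CPM in control and 177.2, 134.0 and 1370 CPM with AMD3100. Of these, 4 of 5 were higher in both replicate 3 libraries than in the others, the most abundant was Myog, a muscle transcription factor, and none was at 0 in any library. The summed level of the 6 mesenchymal markers was between 2724 and 2830 CPM in the other 4 libraries and was 1305 and 1222 CPM in the replicate 3 libraries, with 3 of 6 markers lower in both. The 10 epithelial markers summed to 2236, 2243 and 1492 CPM in control and 2689, 2343 and 3473 CPM with AMD3100, with 6 of 10 lower in both replicate 3 libraries. The 4 macrophage markers, led by C1qa, summed to 73.5, 52.3 and 154.8 CPM in control and 69.2, 64.5 and 127.6 CPM with AMD3100, but C1qa was the 1 marker of the 4 that was higher in both replicate 3 libraries, and 2 of 4 were lower in both. The summed levels of the erythroid markers (5634 to 15898 CPM, led by Hba-a1), of the nerve markers (259.8 to 497.1 CPM, led by Tubb3) and of the endothelial markers (13.0 to 42.5 CPM, led by Kdr, Cdh5 being at 0 in some library) did not separate the replicate 3 libraries. Of the 4 erythroid markers, however, 2 were higher in both replicate 3 libraries, Hbb-bt and Alas2. Of the 5 nerve markers, 1 was higher and 3 were lower in both. The part of these cell types in the levels of Mapk3 and Braf was not tested. Between the groups, 0 of the markers reported here from 7 lists passed the thresholds of the study. Of the epithelial markers, 7 of 10 had a higher mean with AMD3100, and their summed level was above every control library in each AMD3100 library. In AMD3100 replicate 3, Krt15 alone gave 2472 of the 3473 CPM, so the sum there rests mainly on that gene. Of the mesenchymal markers, 1 of 6 had a higher mean, of the erythroid markers 0 of 4 and of the muscle markers 4 of 5. For nerve this was 2 of 5, for macrophages 2 of 4 and for endothelium 1 of 3 tested. The groups stood apart for 1 of 10 epithelial markers, Cdh1, the epithelial cadherin (higher). They also did for 1 of 6 mesenchymal markers, Osr1, a transcription factor (lower), and for no marker of the other lists. Over all genes tested they stood apart for 7.44%. The part of these cell types in the values of Nras, Araf and the MEK genes was not tested.

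**Figure D3:**
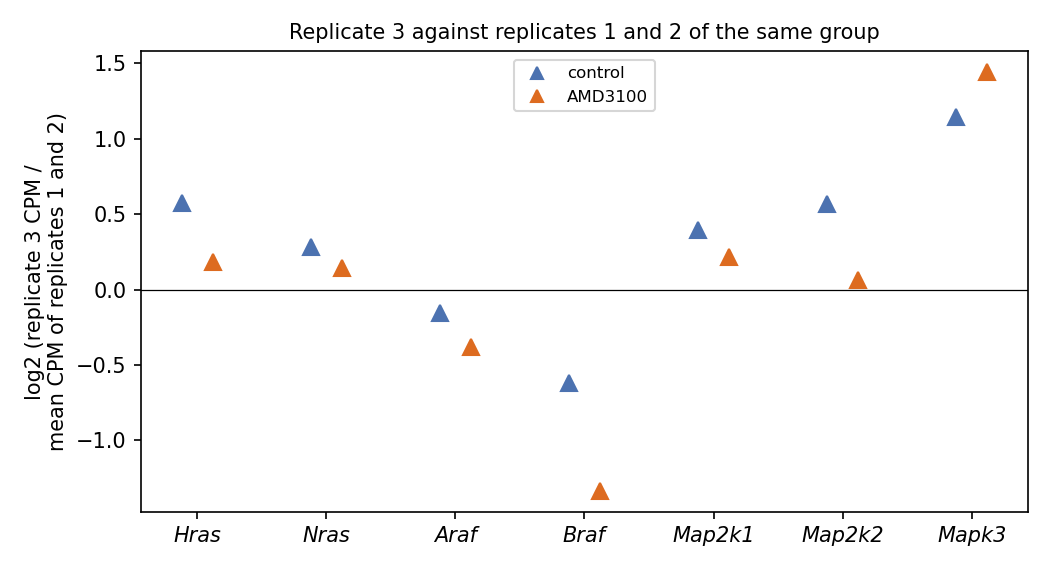
Level in the replicate 3 library over the mean of replicates 1 and 2 of the same group, on a log2 scale, for each cascade gene in control and AMD3100-treated eSMGs. Mapk3 is more than 2-fold higher in replicate 3 of both groups and Braf is lower in both, whereas Nras, Araf and Map2k1 lie closer to 0.

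For each gene, the pathway gene with the most similar profile over the 6 libraries was sought among 124 candidates, as the smallest root mean square difference of log2 CPM after centring each gene on its own mean. The profile of Hras was closest to that of Ppp1ca, a catalytic subunit of protein phosphatase 1, with a difference of 0.05, against a median of 0.52 over the candidates. That of Mapk3 was closest to Lypla2, an acyl-protein thioesterase, with a difference of 0.09. Lypla2 was at 160.4 and 181.7 CPM in the replicate 3 libraries and between 66.2 and 75.2 CPM in the others. Nras was closest to Ralb, a RAS-like GTPase (0.10), Braf to Mapk14, the gene of p38α (0.14), Araf to Spry2, a feedback inhibitor (0.14), and Map2k2 to Hras (0.17). Map2k1 had no close match, its nearest gene being Dusp9, an ERK phosphatase, with a difference of 0.28.

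The other genes of the pathway were followed in 11 lists by role. Of 130 genes on these lists reported here, other than the 7, 118 were tested, 64 with a higher and 54 with a lower mean in AMD3100-treated eSMGs and a median log2 fold change of 0.03. In edgeR's test 3 of the 118 passed the thresholds of the study (2.54%, against 1.68% of all genes), all of them lower, and 0 had an adjusted p-value under 0.05. The groups stood apart for 5 of the 118 (4.24%, against 7.44% of all genes). Reads of some genes named from these lists could match elsewhere in the genome, with 8 of 11 end windows shared for Shc1, 5 for Hsp90ab1, 4 for Dab2ip, 3 for Rasa4 and 1 for Mknk2.

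Among the regulators of RAS, Rasgrp3 fell the most. It encodes an exchange factor that loads RAS and RAP proteins with GTP and is activated by diacylglycerol. It had 105, 105 and 33 counts in control and 25, 5 and 5 counts with AMD3100, so that every AMD3100 library was below every control library. The mean went from 6.71 ± 3.06 to 0.838 ± 0.527 CPM (SD, n = 3 each) (log2 fold change -2.96, SE 0.86, edgeR adjusted p = 0.99998). The other 10 activators tested did not pass the thresholds. Grb2, the adaptor that brings SOS exchange factors to receptors, was at 89.5 ± 16.2 and 83.4 ± 18.0 CPM, and Shc1, another adaptor, at 41.7 ± 14.0 and 57.7 ± 18.2 CPM (SD, n = 3 each). None of the 12 RAS inhibitors tested passed, and their median log2 fold change was 0.06. Dab2ip, a GTPase-activating protein, was the most abundant of them, at 112.8 ± 41.9 and 143.3 ± 42.8 CPM, and Rasa4, of the same class, had the largest difference, at 9.29 ± 5.38 and 3.92 ± 1.67 CPM (SD, n = 3 each). Of the other RAS family GTPases, Rap1b was at 83.8 ± 52.0 and 99.6 ± 31.2 CPM and Rap1a at 41.6 ± 13.9 and 33.0 ± 3.75 CPM (SD, n = 3 each). The 9 genes for lipid modification and delivery of RAS had a median log2 fold change of 0.01, with 0 past the thresholds. Fnta, a farnesyltransferase subunit, was the most abundant, at 135.4 ± 107.1 and 110.1 ± 53.1 CPM, and Zdhhc9, a palmitoyltransferase, had the largest difference, at 39.5 ± 23.3 and 62.5 ± 31.1 CPM (SD, n = 3 each).

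Scaffolds and proteins that bind RAF, MEK or ERK were nearly all expressed, 19 of the 22 listed being tested. Of these, 16 had a higher and 3 a lower mean with AMD3100, against 7100 of all 13610 genes higher. The median log2 fold change was 0.15 against 0.02 over all genes, and 0 passed the thresholds. Besides Hsp90ab1, end windows were shared for Pebp1 and Ywhah (11 of 11 each), Lamtor3 (8), Lamtor1 (4), Shoc2 (3) and Ywhab (2). Hsp90ab1, a chaperone of RAF kinases, was the most abundant of the list, at 5430 ± 2142 and 6272 ± 2500 CPM (SD, n = 3 each). Ppp1cb, a phosphatase 1 subunit, had the largest difference of those at 5 CPM or more (log2 fold change -0.34, SE 0.33).

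The list named feedback inhibitors holds Sprouty genes and DUSP phosphatase genes, not all of which are specific to feedback from ERK. It had the lowest median of the lists. Of 10 tested, 8 had a lower mean with AMD3100, against 6510 of all 13610 genes, with a median log2 fold change of -0.40. That median lies between Dusp3 (-0.45) and Dusp1 (-0.36). Dusp2 (lower) had 0 counts in AMD3100 replicate 2, and Dusp4 (higher) had 0 in control replicate 1. Past the thresholds of the study, 2 were lower, Dusp6 and Dusp7, against 174 of all genes (1.28%). They encode phosphatases that remove the activating phosphates of ERK. Dusp6 was at 236.1, 214.4 and 263.2 CPM in control and 97.4, 186.6 and 132.4 CPM with AMD3100 (log2 fold change -0.78, SE 0.32, edgeR adjusted p = 0.99998). Dusp7 was at 48.2, 27.4 and 26.6 CPM in control and 21.2, 20.002 and 14.7 CPM with AMD3100 (log2 fold change -0.87, SE 0.36, edgeR adjusted p = 0.99998). For both, every AMD3100 library was below every control library. Of the 11 windows from the end of the Dusp7 transcript, 5 matched another place of the genome about as well. A noncoding RNA gene overlaps the span of Dusp6 by 626 bases. Spry4, a Sprouty inhibitor, was at 15.9 ± 15.4 and 4.40 ± 3.13 CPM and did not pass, and Spry2, the most abundant Sprouty gene, was at 90.7 ± 10.2 and 104.0 ± 23.2 CPM (SD, n = 3 each). Rasgrp3 kept its place past the thresholds in each of the 14 alternatives in which it could be tested, Dusp6 in 9 of 15 and Dusp7 in 10 of 15. Dusp6 no longer passed without AMD3100 replicate 1, AMD3100 replicate 3 or any control replicate, nor did Dusp7 without control replicate 1 or any AMD3100 replicate, and both did not pass with quantile normalization. With single replicates left out, log2 fold changes ranged from -3.62 to -2.66 for Rasgrp3, from -1.04 to -0.58 for Dusp6 and from -1.01 to -0.54 for Dusp7.

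Downstream of ERK, none of the 8 substrate kinases and none of the 14 target factors and target genes tested passed the thresholds, with median log2 fold changes of 0.07 and 0.15. Ccnd1, the gene of cyclin D1, was the most abundant target, at 294.9 ± 56.8 and 228.8 ± 90.6 CPM (SD, n = 3 each). Etv1, an ETS factor, was higher in every AMD3100 library, at 4.11, 5.97 and 4.19 CPM in control and 9.04, 10.05 and 6.63 CPM with AMD3100 (log2 fold change 0.85, SE 0.50). Mknk2, a kinase that ERK activates, was at 44.2 ± 14.7 and 42.1 ± 11.999 CPM, and Rps6ka3, the gene of the kinase RSK2, at 16.3 ± 7.39 and 10.7 ± 2.10 CPM (SD, n = 3 each).

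**Figure D4:**
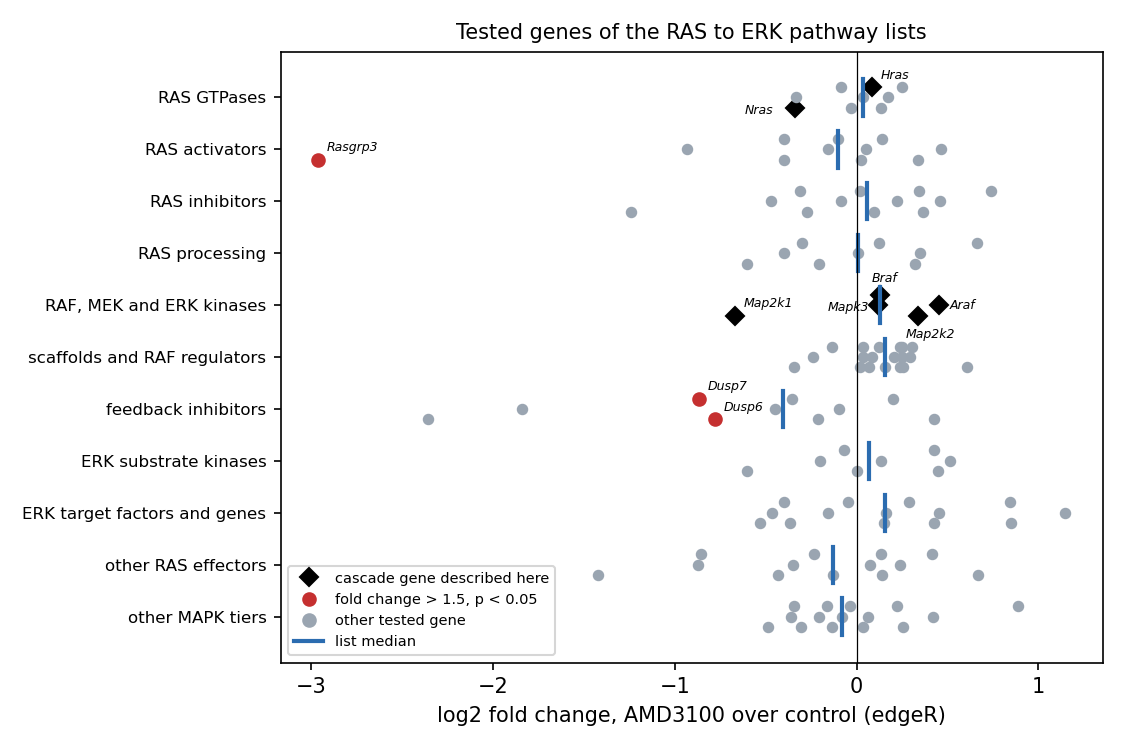
Log2 fold change of AMD3100 over control for the tested genes reported here from 11 pathway lists, with a point per gene, a bar for the median of each list, diamonds for the 7 cascade genes and red for the genes with a fold change over 1.5 and an unadjusted p-value under 0.05. Rasgrp3, Dusp6 and Dusp7 are the red points, all lower with AMD3100, and the cascade genes lie between -0.67 and 0.45.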

How the data were processed

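The authors prepared 3′ mRNA libraries (QuantSeq kit, 50 bp single reads) and deposited raw read counts per gene symbol, without normalization or filtering. The submitters' processing notes name Bowtie2, edgeR and the build mm10. The counting tool and the annotation are not given in the sources used here.

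There were 23282 lines, 44 of them repeats of a symbol. Exact repeats, 22 in number, were dropped. The members, lists, markers and the rule for named genes were chosen with earlier results of these data known. The rule named, for each list, the genes past both thresholds, the most abundant of the rest and the one with the largest difference at a mean of 5 CPM or more. Genes named in other roles (Cdh1 and Osr1) were chosen after their values were seen. The counts were compared with edgeR 4.0.16 in R 4.3.3 (TMM, filterByExpr, glmQLFit, glmQLFTest and Benjamini-Hochberg adjustment), with condition as the only term. Standard errors came from the coefficient and its F. Alternatives used DESeq2 1.42.0, limma 3.58.1 on quantile-normalized log2(count + 1), upper quartile normalization, other filters, robust estimation, the replicate block, Rn45s (ribosomal RNA precursor) left out, replicates 1 and 2 only, and each replicate left out. The fits were also run on simulated data, but no outcome of that is reported here and no result rests on it. Replicate numbers come from the labels. Deviations of same-numbered libraries from their group means had correlations across genes of 0.185, 0.171 and 0.584, so the block was also fitted, although control replicate 2 with AMD3100 replicate 1 had 0.198. Between libraries, correlations of log2 CPM lay between 0.813 and 0.954.

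Positions and promoters are from RefSeq on GRCm38.p6. Windows of 50 bases, every 25 bases over the last 300 bases of a transcript (GENCODE vM1, NCBIM37), were aligned with minimap2 2.31-r1302. A window counted as shared when its next best alignment scored within 10 of the best. On the build of the authors this may differ. Of these families, lists and markers, 4 genes are not reported here, so the counts given do not cover the families in full.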

Additional observations from a re-analysis of the deposited data

How the results depend on the processing

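Of the 7 cascade genes, Nras, Araf, Map2k1 and Map2k2 had the same direction in all 15 alternatives, although omitting 1 library took Araf to 0.28 (AMD3100 replicate 2) and Map2k2 to 0.15 (control replicate 1) or 0.56 (control replicate 3) on the log2 scale, and none of the 7 passed the study's thresholds or an adjusted p-value of 0.05 in any of them (lowest adjusted p = 0.761, for Map2k2 with the replicate block in edgeR). When replicates were omitted singly, log2 fold changes of Hras ranged from -0.042 to 0.31, of Braf from -0.17 to 0.55, and of Mapk3 from -0.55 to 0.62, so these 3 turned, and that of Mapk3 was -0.051 with replicates 1 and 2 only. The count of all genes past both thresholds, 228, was 467 with quantile normalization and limma, 598 with the replicate block and 613 with replicates 1 and 2 only. Leaving out single replicates gave 163 to 547, the largest counts being 547 without control replicate 3 (316 higher and 231 lower) and 451 without AMD3100 replicate 3. The count with an adjusted p-value under 0.05, 0 in edgeR's test (228 at an unadjusted p-value under 0.05), was 5 with DESeq2 and 3 with the replicate block, and the block changed no call among the 7. The cause of these shifts was not tested. Map2k1, with 70 to 160 counts, had the fewest counts of the 7.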

Other observations

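The branches beside the cascade were also followed. Of 13 RAS effectors other than RAF, the mean with AMD3100 was above that of control for 6 and below it for 7, with a median log2 fold change of -0.13, and 0 passed the study's thresholds in edgeR's test. Tiam1, an exchange factor that links RAS to RAC, was at 26.7, 37.2 and 29.2 CPM in control and 53.9, 55.2 and 38.7 CPM with AMD3100, so that every AMD3100 library was above every control library (log2 fold change 0.67, SE 0.30). Rala, a RAS-like GTPase, was the most abundant of this list, at 152.7 ± 44.0 and 168.1 ± 42.0 CPM (SD, n = 3 each).

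Of 16 genes of other MAP kinase branches (JNK, p38, ERK5 and atypical MAP kinases, and the MAP2K genes of these branches), 15 were tested, 6 with a higher and 9 with a lower mean, with a median log2 fold change of -0.08 and 0 past the thresholds. Mapk9, the gene of JNK2, was the most abundant, at 45.0 ± 19.9 and 46.2 ± 15.5 CPM, and Mapk7, the gene of ERK5, had the largest difference of those at 5 CPM or more, at 35.4 ± 13.7 and 25.2 ± 8.50 CPM (SD, n = 3 each).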
